A study of Homo sapiens with 2 samples.

Results

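The genes described here are 39 that charge transfer RNAs (tRNAs) with amino acids or hold the charging enzymes together: 20 genes of cytosolic aminoacyl-tRNA synthetases, 16 of mitochondrial ones (symbols ending in 2) and 3 of scaffold proteins. They were taken by symbol from 25268 genes, and all 39 were found in both libraries. The cells were C4-2B MDVR, human prostate cancer cells derived from LNCaP that grow without androgen and despite enzalutamide, an antiandrogen. It was maintained in medium with 20 µM enzalutamide, so both groups share that drug. The first group received 20 µM Indocin (indomethacin, a cyclooxygenase inhibitor that also inhibits the androgen-synthesis enzyme AKR1C3) for 3 days, and the second received its vehicle, DMSO, for 3 days. Each group had 1 library, from 1 cell line, so differences are reported without a replicate check, a test or an error across cultures.

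An aminoacyl-tRNA synthetase joins 1 kind of amino acid to its tRNAs. The cytosolic set serves the ribosomes that translate nuclear genes, and a second, nuclear-encoded set is imported into mitochondria for the few proteins made there. Several cytosolic synthetases sit in a multisynthetase complex held together by AIMP1, AIMP2 and EEF1E1 (AIMP3), while the others are free enzymes. Many cytosolic synthetase genes are known targets of ATF4, a transcription factor that acts in the integrated stress response and is translated when amino acids run short or the endoplasmic reticulum is stressed. GARS and KARS are special cases, because each gene makes both the cytosolic and the mitochondrial enzyme.

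Values are FPKM, a fragment count scaled to transcript length and library size, so that levels of different genes can be set side by side. The log2 ratio is log2((Indocin FPKM + 1)/(DMSO FPKM + 1)), and "1.5-fold" and "2-fold" refer to this scale. FPKM summed to 583096 in the Indocin library and 617510 in the DMSO library, and the number of reads behind them is unknown. For 51.8% of 1335 genes averaging under 0.05 FPKM, the libraries had a ratio of Indocin to DMSO within 1% of 1.013 times a ratio of whole numbers up to 6, against a median of 7.57% over other factors. The 8 prostate epithelial markers all averaged at least 1 FPKM and summed to 1336 FPKM in the Indocin library and 1549 FPKM in the DMSO library, with log2 ratios from -0.51 (SLC45A3) to 0.18 (FOLH1). Fibroblast markers summed to 4.83 FPKM in the Indocin library and 4.54 FPKM in the DMSO library, with 4 of 6 listed at 0 in both. Immune markers summed to 6.36 and 7.21 FPKM in the Indocin and DMSO libraries, nearly all of it CD68, and endothelial markers to 0.658 and 0.401 FPKM. Of the neuroendocrine markers, ENO2 had 31.7 FPKM in the Indocin library and 33.1 FPKM in the DMSO library, and CHGA, CHGB, SYP and NCAM1 were all under 1 FPKM.

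Many cytosolic synthetase genes stood higher in the Indocin library, while the mitochondrial ones differed little. Of 20 cytosolic genes, 8 were at least 1.5-fold higher (GARS, CARS, SARS, AARS, MARS, YARS, WARS and EPRS) and none was as much lower, with a median log2 ratio of 0.51. Of 16 mitochondrial genes none was 1.5-fold higher or lower, with a median of -0.08, and none of the 3 scaffold genes was either (median -0.08). The background is 11962 genes that averaged 1 FPKM or more, all 39 members included, of which 2.20% were 1.5-fold or more higher and 0.752% as much lower, with a median of -0.03. In bulk RNA, fewer cells of a type and less RNA per cell cannot be told apart. That background was 263 genes higher and 90 lower as deposited, 322 and 58 after scaling to equal upper quartiles, and 324 and 52 after scaling to equal sums.

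**Figure D1:**
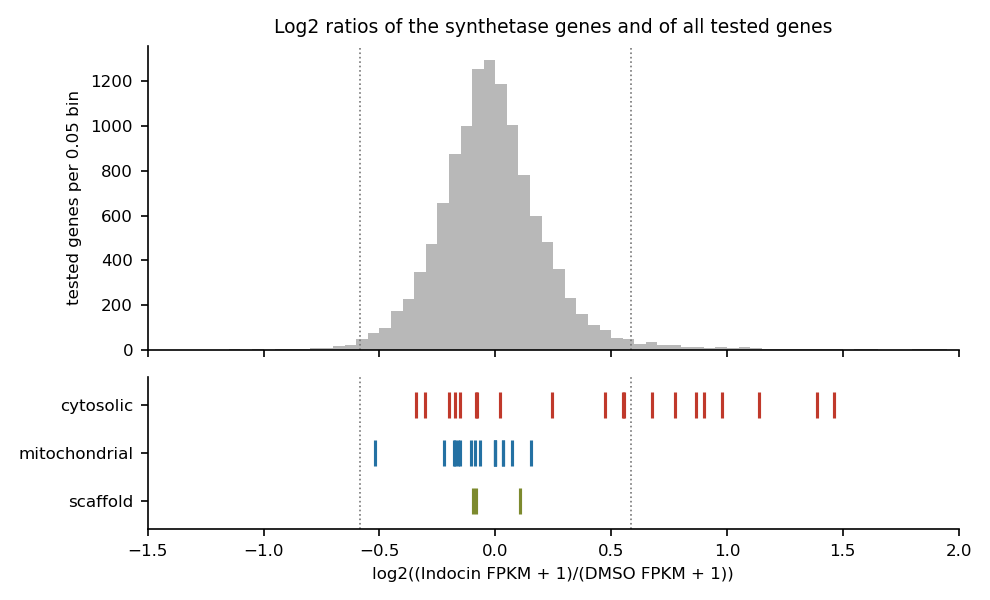
The upper panel counts the 11962 tested genes by log2 ratio (x axis) in bins of 0.05, and the lower panel marks each synthetase or scaffold gene, with dotted lines at 1.5-fold. The x axis ends at 2, beyond which 19 tested genes lay. The mitochondrial and scaffold genes sit between the dotted lines, with MARS2 (-0.52) near the lower one, while 8 cytosolic genes lie right of the upper line.

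Summed over genes, cytosolic synthetases came to 2135 FPKM in the Indocin library and 1532 FPKM in the DMSO library, a ratio of 1.39. The mitochondrial sum was 368.7 FPKM in the Indocin library and 393.3 FPKM in the DMSO library, a ratio of 0.938. The cytosolic sum was thus 5.79 times the mitochondrial sum in the Indocin library and 3.89 times in the DMSO library. Levels of individual cytosolic genes ran from 39.1 to 210.5 FPKM in the Indocin library and from 24.0 to 138.1 FPKM in the DMSO library. Mitochondrial genes ran from 4.68 to 89.4 FPKM in the Indocin library and from 5.12 to 87.3 FPKM in the DMSO library.

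GARS, which encodes glycyl-tRNA synthetase, had the highest ratio of the family. It stood at 210.5 FPKM in the Indocin library and 75.8 FPKM in the DMSO library, 2.78-fold in FPKM (log2 ratio 1.46). It was the most abundant cytosolic synthetase gene in the Indocin library and the 10th of 20 in the DMSO library. CARS, the cysteinyl enzyme, followed at 64.4 FPKM in the Indocin library and 24.0 FPKM in the DMSO library (1.39). CARS had the lowest level of the cytosolic set in the DMSO library and ranked 15th in the Indocin library. SARS, the seryl enzyme, which also charges the tRNA that is then converted for selenocysteine, stood at 194.2 FPKM in the Indocin library and 87.7 FPKM in the DMSO library (1.14). These 3 were the members at least 2-fold higher, against 0.761% of all tested genes, and they ranked 42, 46 and 66 by ratio among the 11962.

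AARS, the alanyl enzyme, came just short of 2-fold, at 170.7 FPKM in the Indocin library and 86.1 FPKM in the DMSO library (0.98). MARS, the methionyl enzyme that charges the initiator tRNA as well as the elongator, stood at 150.6 FPKM in the Indocin library and 80.2 FPKM in the DMSO library (0.90). The tyrosyl enzyme YARS was listed at 111.9 FPKM with Indocin and 60.9 FPKM with DMSO (0.87). WARS, the tryptophanyl enzyme, which interferon is also known to induce, had 127.9 FPKM in the Indocin library and 74.4 FPKM in the DMSO library (0.77). EPRS, a single protein that carries both the glutamyl and the prolyl activity, had 80.1 FPKM in the Indocin library and 49.8 FPKM in the DMSO library (0.68), the member nearest above the 1.5-fold line.

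Just under that line lay IARS (isoleucyl), with 97.3 FPKM in the Indocin library and 65.8 FPKM in the DMSO library (0.56), and NARS (asparaginyl), with 122.7 and 83.4 FPKM in the Indocin and DMSO libraries (0.55). Both passed it after scaling to equal upper quartiles (0.63 and 0.62) or equal sums (0.64 and 0.63), which brought the count to 10 of 20. TARS, the threonyl enzyme, had 132.2 FPKM in the Indocin library and 94.8 FPKM in the DMSO library (0.48). LARS, the leucyl enzyme, which is also described as a leucine sensor for mTORC1, had 39.1 FPKM with Indocin and 32.9 FPKM with DMSO (0.24).

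The other 8 cytosolic genes had ratios near or below 0. DARS (aspartyl) stood at 48.3 FPKM in the Indocin library and 47.6 FPKM in the DMSO library (0.02), HARS (histidyl) at 45.8 FPKM with Indocin and 48.3 FPKM with DMSO (-0.08), and KARS (lysyl) at 130.3 FPKM with Indocin and 138.1 FPKM with DMSO (-0.08). KARS was the most abundant cytosolic synthetase gene in the DMSO library and 6th in the Indocin library. VARS (valyl) had 106 FPKM in the Indocin library and 118.1 FPKM in the DMSO library (-0.15), QARS (glutaminyl) 88.4 FPKM with Indocin and 99.8 FPKM with DMSO (-0.17), and RARS (arginyl) 53.9 FPKM with Indocin and 62.0 FPKM with DMSO (-0.20). Cytosolic phenylalanyl-tRNA synthetase is built from 2 subunits of separate genes, and these had the lowest ratios of the cytosolic set. The catalytic subunit FARSA stood at 104.6 FPKM in the Indocin library and 132.9 FPKM in the DMSO library (-0.34), and its partner FARSB at 55.9 FPKM with Indocin and 69.2 FPKM with DMSO (-0.30). The level of FARSA was 1.87 times that of FARSB in the Indocin library and 1.92 times in the DMSO library. HARS changed sign, to 0.00, after scaling to equal sums, while the signs of the other 7 held under every scaling tried.

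**Figure D2:**
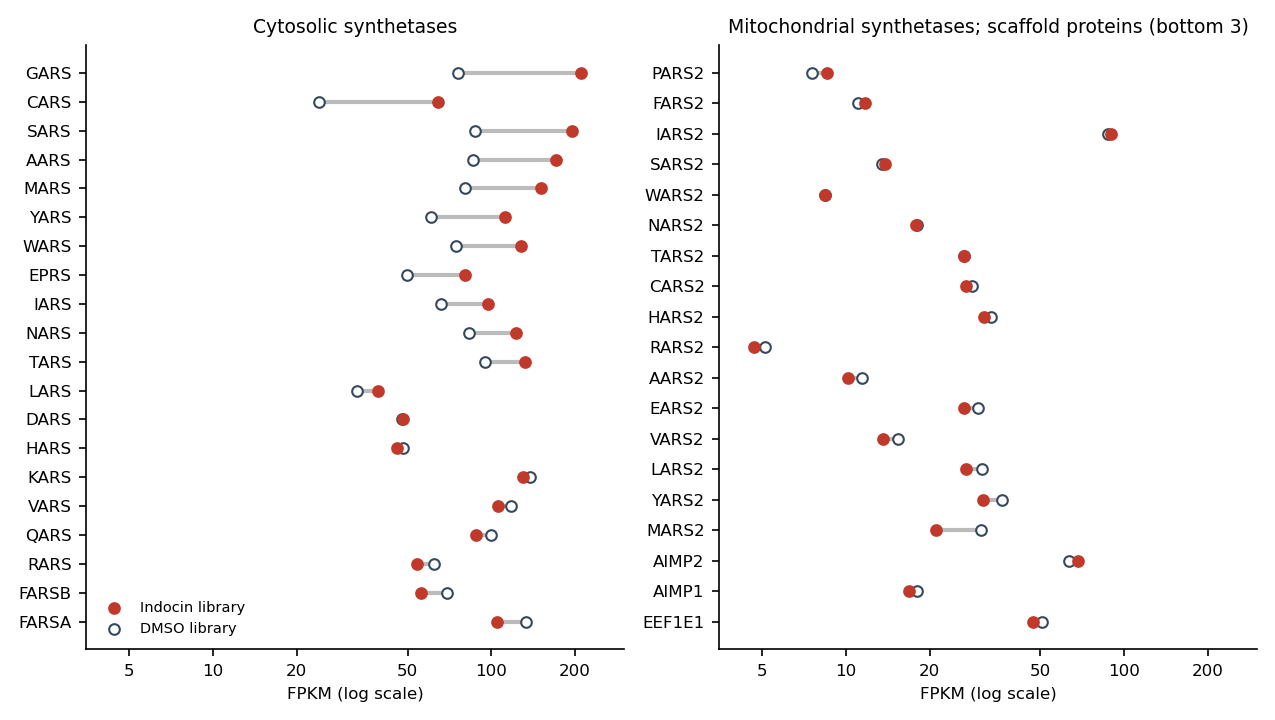
FPKM on a log axis for each gene in the Indocin library (filled) and the DMSO library (open), ordered by log2 ratio within cytosolic, mitochondrial and scaffold genes. The filled point lies right of the open one for the upper 13 cytosolic genes, from GARS (210.5 and 75.8 FPKM) to DARS (48.3 and 47.6 FPKM), while the points of most mitochondrial genes nearly coincide.

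GARS and KARS, the genes that each make both a cytosolic and a mitochondrial enzyme, had log2 ratios of 1.46 and -0.08. The level of GARS was 1.62 times that of KARS in the Indocin library and 0.549 times in the DMSO library. FPKM per gene does not separate the transcripts of the 2 forms.

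The start regions of the members were searched for an ATF4 motif. ATF4 is known to bind, with partners of the C/EBP family, to a composite element (CARE) whose core is TGATGNAA, where N is any base. This core was searched on both strands in windows from 250 bases before to 50 bases after each gene start from RefSeq (GRCh38.p14), which were at hand for 33 of the 39 members, under the symbol of the files or its renamed form ending in 1. The members not searched were DARS, LARS, VARS, YARS, AARS2 and VARS2. Some members had more than 1 start and window, and a match in any of them counted. Among cytosolic members, CARS, GARS, SARS, TARS and WARS had 2 windows each. In CARS, GARS and TARS only 1 of the 2 windows matched, and distances below are to the start of the matched window. A match was found for 7 of 16 cytosolic members, 1 of 14 mitochondrial members and none of 3 scaffold members, against 4.46% of all 27305 genes with a window (3.62% of 35116 windows). Each matched stretch is shown with 11 bases on either side, 5′ to 3′ on the strand of the gene, with the core in capitals, to let the matches be compared by free base, orientation and distance to the start.
GARS, chr7:30594834-30594863, plus strand, core 33 bases before the start: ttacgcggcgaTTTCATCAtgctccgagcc
CARS, chr11:3057407-3057436, minus strand, core from 2 bases before the start: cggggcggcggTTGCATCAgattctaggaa
AARS, chr16:70289675-70289704, minus strand, core 187 bases before the start: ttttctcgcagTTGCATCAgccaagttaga
MARS, chr12:57488053-57488082, plus strand, core from 4 bases before the start: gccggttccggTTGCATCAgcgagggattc
IARS, chr9:92293692-92293721, minus strand, core 13 bases before the start: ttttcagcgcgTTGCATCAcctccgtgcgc
NARS, chr18:57621804-57621833, minus strand, core from base 15 after the start: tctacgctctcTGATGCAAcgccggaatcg
TARS, chr5:33440956-33440985, plus strand, core from base 3 after the start: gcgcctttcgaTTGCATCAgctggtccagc
YARS2, chr12:32756076-32756105, minus strand, core 197 bases before the start: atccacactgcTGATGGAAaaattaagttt

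In CARS, AARS, MARS, IARS, NARS and TARS the core read TGATGCAA, on the opposite strand of the gene except in NARS. In GARS it read TGATGAAA and in YARS2 TGATGGAA. The 7 cytosolic members with a match had log2 ratios from 0.48 (TARS) to 1.46 (GARS), with a median of 0.90. The 9 cytosolic members searched without a match ran from -0.34 (FARSA) to 1.14 (SARS), with a median of -0.08. SARS, WARS (0.77) and EPRS (0.68) were at least 1.5-fold higher with no match in any window searched, and the other 6 (HARS, KARS, QARS, RARS, FARSB and FARSA) had ratios of -0.08 or less as deposited. YARS2 had a match and a ratio of -0.22. Windows could be linked, by symbol or its renamed form ending in 1, to 8923 of the 11962 tested genes, members included. Genes renamed in other ways were left out. Among those outside the family, the core was matched for 32 of 186 genes at least 1.5-fold higher (17.2%). It was matched for 192 of 8704 other tested genes with a linked window (2.21%). Higher genes without a linked window are not in these counts, and the motif was chosen with earlier results of these data known. A match of these letters is not a binding site, and binding was not measured.

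**Figure D3:**
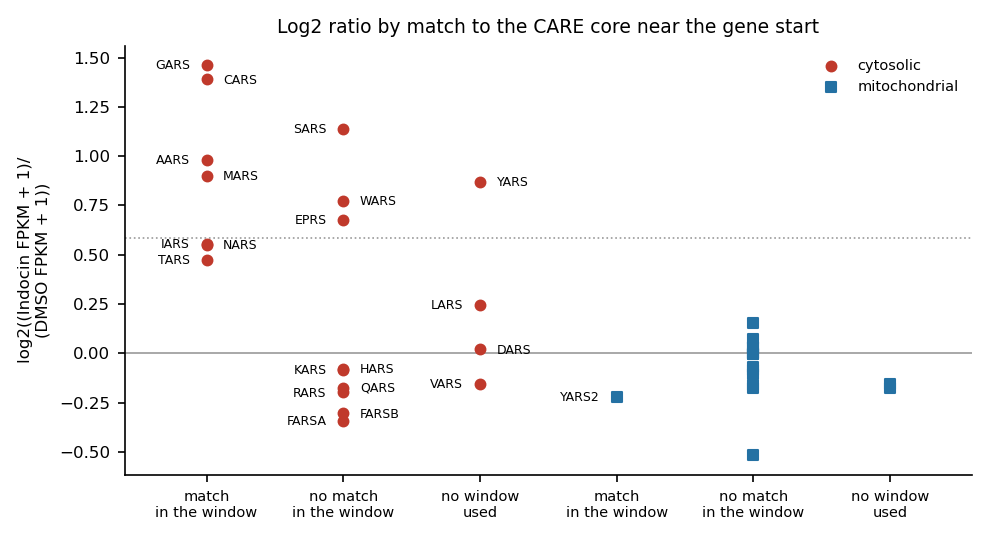
Log2 ratio of each cytosolic (circles) and mitochondrial (squares) synthetase gene by match to the CARE core in any of its 300-base start windows. A dotted line marks 1.5-fold. The 7 cytosolic genes with a match lie between 0.48 and 1.46, and those without lie between -0.34 and 1.14.

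ATF4 itself stood at 689 FPKM in the Indocin library and 283.9 FPKM in the DMSO library (1.28), and its partner and target DDIT3 (CHOP) at 105.4 and 22.5 FPKM in the Indocin and DMSO libraries (2.18). Of 8 listed genes of the integrated stress response, only these 2 were at least 1.5-fold higher (median 0.12), against 2.20% of all tested genes. PPP1R15A (0.18) and EIF2S1 (-0.24), also on the list, were not. Genes of the 4 kinases that start the integrated stress response did not reach 1.5-fold, including GCN2 (EIF2AK4), the sensor of uncharged tRNA, with 14.8 FPKM in the Indocin library and 17.3 FPKM in the DMSO library (-0.22).

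Amino acid by amino acid, the cytosolic gene had the higher log2 ratio in 14 of 17 pairs with a mitochondrial gene, covering 16 amino acids. FARSA and FARSB were each set against FARS2, and EPRS against EARS2 and PARS2, so these pairs share a gene. The median difference, cytosolic minus mitochondrial log2 ratio, was 0.52, and in 7 pairs it reached 1.5-fold. The largest was for cysteine, where CARS had 1.39 and CARS2 -0.07 (27.0 FPKM in the Indocin library and 28.3 FPKM in the DMSO library), a difference of 1.46. In the DMSO library CARS was the only cytosolic gene besides IARS with a level below its mitochondrial partner, at 0.847 times CARS2. With Indocin CARS stood at 2.39 times CARS2.

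Methionine had the next largest difference, 1.42, and the only pair in which the members moved apart by over 0.5 on each side of 0. MARS had a ratio of 0.90 while MARS2, with 21.1 FPKM in the Indocin library and 30.6 FPKM in the DMSO library, had -0.52, the lowest of all 39 and still within 1.5-fold. The level of MARS was 7.14 times that of MARS2 in the Indocin library and 2.62 times in the DMSO library. The 30 bases before the MARS2 start (chr2:197705339-197705368, plus strand, GRCh38.p14) are shown because they hold 2 motifs of other factors in capitals, a match on each strand to the core GCGCATGC of NRF1, a regulator of nuclear genes for mitochondria, and then the E-box CACGTG, which MYC and related factors bind.
MARS2: gctGCGCATGCGCctctcaCACGTGctgtc

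The NRF1 core was found for 2 of 14 mitochondrial members searched, MARS2 (-0.52) and YARS2 (-0.22), against 3.68% of all genes with a window. None of 16 cytosolic members searched had it, nor did LARS2 (-0.18), which had a ratio close to that of YARS2. Whether this motif bears on the ratios was not tested. The E-box was found for 3 of 14 mitochondrial members searched (CARS2, EARS2 and MARS2), against 8.77% of genes. It was also found for 1 of 16 cytosolic members (IARS) and 1 of 3 scaffold members (AIMP2). The cyclic AMP response element TGACGTCA was found for AIMP2 alone of 33 members searched, against 2.25% of genes. These counts are too small to describe the family. The E-box, the NRF1 core read on both strands in MARS2 (where the 2 matches overlap) and the response element did not overlap a CARE match.

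For alanine the cytosolic minus mitochondrial difference was 1.13, with AARS2 at 10.2 FPKM in the Indocin library and 11.5 FPKM in the DMSO library (-0.15). For serine it was 1.10, with SARS2 at 13.9 FPKM with Indocin and 13.5 FPKM with DMSO (0.03). For tyrosine it was 1.09, with YARS2 at 31.0 FPKM in the Indocin library and 36.3 FPKM in the DMSO library (-0.22). In these 3 pairs the mitochondrial gene lay nearer to 0 than its cytosolic partner. Glutamate (EPRS and EARS2) differed by 0.84 and tryptophan (WARS and WARS2) by 0.77. EARS2 had 26.5 FPKM with Indocin and 29.8 FPKM with DMSO (-0.16), and WARS2 8.40 FPKM in both libraries (0.00).

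The differences for asparagine (0.55), proline (0.52), isoleucine (0.52), threonine (0.48) and leucine (0.42) were under 1.5-fold. Here NARS2 was listed at 17.9 FPKM in both libraries (-0.00), TARS2 at 26.5 FPKM in both (-0.00) and PARS2 at 8.52 FPKM in the Indocin library and 7.56 FPKM in the DMSO library (0.15), the highest ratio of the mitochondrial set. NARS2 and TARS2 had signs that turned positive under each of the 3 scalings, and CARS2 under 2 of them. IARS2, the most abundant mitochondrial synthetase gene, had 89.4 FPKM in the Indocin library and 87.3 FPKM in the DMSO library (0.03). LARS2 had 27.1 FPKM with Indocin and 30.8 FPKM with DMSO (-0.18). The level of IARS was 1.09 times that of IARS2 in the Indocin library and 0.754 times in the DMSO library, so the order of this pair turned round as well.

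Pairs for 3 amino acids lay within 0.1 of each other. Histidine differed by 0.01, with HARS2 at 31.3 FPKM in the Indocin library and 33.3 FPKM in the DMSO library (-0.09), and valine by 0.02, with VARS2 at 13.5 FPKM with Indocin and 15.4 FPKM with DMSO (-0.17). Arginine differed by -0.09, RARS2 having 4.68 FPKM with Indocin and 5.12 FPKM with DMSO (-0.11), the lowest level of the family. HARS and HARS2 lie head to head on chromosome 5, and 184 bases of their 300-base start windows overlap on opposite strands. Phenylalanine was the only amino acid with a cytosolic ratio below the mitochondrial one by more than 0.1, by -0.41 for FARSA and -0.37 for FARSB against FARS2, which had 11.7 FPKM in the Indocin library and 11.1 FPKM in the DMSO library (0.07). With a pseudocount of 5 FPKM the cytosolic ratio was above in 13 pairs in place of 14.

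The start windows of 6 other synthetase genes overlap on the opposite strand with that of a measured gene outside the family, a comparison added after values were seen. WARS (0.77) shares 257 bases with WDR25, which had 6.52 FPKM in the Indocin library and 5.72 FPKM in the DMSO library (0.16). KARS (-0.08) shares 207 bases with TERF2IP, a telomere protein gene with 63.1 FPKM with Indocin and 55.6 FPKM with DMSO (0.18). SARS2 (0.03) shares 280 bases with MRPS12, a mitochondrial ribosomal protein gene with 89.8 FPKM with Indocin and 111.7 FPKM with DMSO (-0.31). The other 3 pairs had closer ratios, namely EARS2 (-0.16) and UBFD1 (0.01), FARS2 (0.07) and LYRM4 (-0.04), and RARS2 (-0.11) and ORC3 (0.04).

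Synthetases outside the multisynthetase complex had the higher median ratio within the cytosolic set, although the lowest ratios, of FARSA and FARSB, were also outside it. Of 12 outside it, 6 were at least 1.5-fold higher (GARS, CARS, SARS, AARS, YARS and WARS), with a median log2 ratio of 0.66. Of 8 inside it, 2 were (MARS and EPRS), with a median of 0.13. Of all tested genes, 2.20% were as much higher. The difference of the medians was 0.53, and the ranges overlapped widely, from -0.34 to 1.46 outside and from -0.20 to 0.90 inside. Summed levels were 1447 FPKM in the Indocin library and 955.5 FPKM in the DMSO library outside the complex, and 688 FPKM with Indocin and 576.2 FPKM with DMSO inside it.

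The scaffold genes of the complex had ratios near 0, below MARS (0.90), EPRS (0.68), IARS (0.56) and LARS (0.24). The other enzymes inside the complex, DARS (0.02), KARS (-0.08), QARS (-0.17) and RARS (-0.20), also had ratios near or below 0. AIMP2, on which the complex is assembled, had 68.1 FPKM in the Indocin library and 63.2 FPKM in the DMSO library (0.11). EEF1E1, which binds MARS within the complex, had 47.1 FPKM with Indocin and 50.5 FPKM with DMSO (-0.10), and AIMP1, also known as the precursor of a cytokine, had 16.9 FPKM with Indocin and 18.0 FPKM with DMSO (-0.08). The 3 together summed to 132.1 FPKM in the Indocin library and 131.7 FPKM in the DMSO library.

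**Figure D4:**
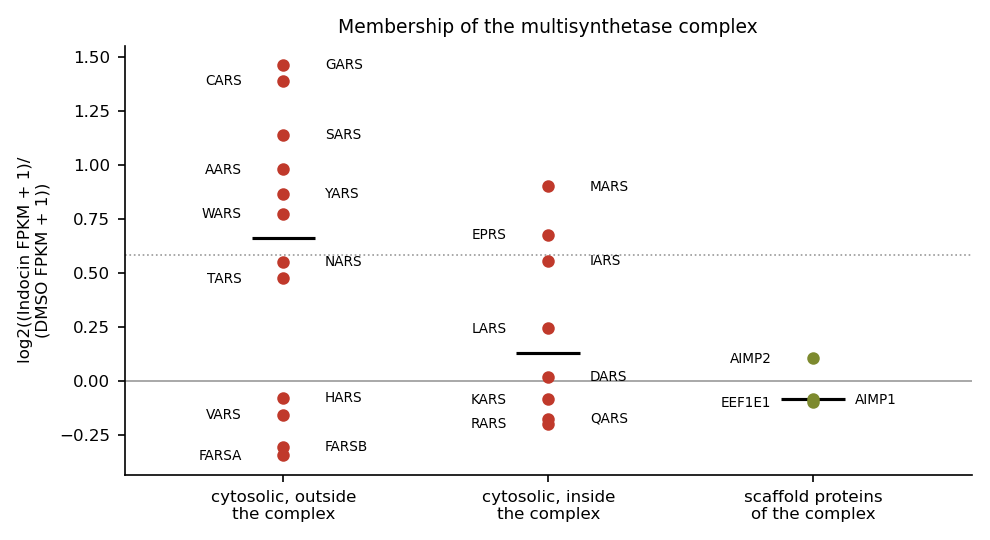
Log2 ratio of each cytosolic synthetase gene outside and inside the multisynthetase complex and of its scaffold genes, with a bar at each median (0.66, 0.13 and -0.08) and a dotted line at 1.5-fold. High and low ratios occur both outside and inside the complex, and the scaffold genes lie near 0.

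The genes were also split by the kind of amino acid, a grouping added after values were seen. Of 10 cytosolic genes for amino acids that human cells can make, 6 were at least 1.5-fold higher (GARS, CARS, SARS, AARS, YARS and EPRS), with a median of 0.77. Of 10 cytosolic genes for essential amino acids, 2 were (MARS and WARS), with a median of 0.08. These 10 count phenylalanine by both its subunits, FARSA (-0.34) and FARSB (-0.30). Of all tested genes, 2.20% were as much higher. Among mitochondrial genes the same groups had medians of -0.09 and -0.04. Synthetases also fall into 2 unrelated catalytic classes. Of 9 cytosolic genes of class I, 4 were at least 1.5-fold higher (median 0.56), against 3 of 10 of class II (median 0.25), with EPRS belonging to both classes.

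Genes that work beside the synthetases mostly lay near the median of all genes. Of 9 cytosolic elongation factor genes, which carry charged tRNA to the ribosome and move it through, none differed by 1.5-fold (median -0.07), with EEF2 the highest (0.12) and EIF5A the lowest (-0.21). None of 12 mitochondrial translation factor genes did either (median -0.02), from MTRF1L (-0.17) to C12orf65 (0.46). The 4 genes that form mitochondrial glutaminyl-tRNA by amidation (QRSL1, PET112 and GATC) or formylate the mitochondrial initiator (MTFMT) ran from -0.21 for MTFMT to 0.06 for PET112. No gene of 7 for synthetase-like and editing proteins reached 1.5-fold, SEPSECS, which completes selenocysteinyl-tRNA, being the highest (0.39) and DTD2 the lowest (-0.05).

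Of 24 genes of tRNA processing and export, 2 were at least 1.5-fold higher, against 2.20% of all tested genes. The median was -0.13, and 19 had ratios below 0. XPOT, the exporter of tRNAs from the nucleus, stood at 155.9 FPKM in the Indocin library and 99.4 FPKM in the DMSO library (0.64), and ELAC1, a tRNA 3′ processing enzyme of low level, at 1.64 FPKM with Indocin and 0.606 FPKM with DMSO (0.72). ELAC1 averaged 1 FPKM or more only through its Indocin value, so its call was in part fixed by the filter. Without ELAC1, XPOT is the only gene of this list called. None of 55 measured tRNA modification genes reached 1.5-fold (median -0.08), with MTO1, of mitochondrial tRNA modification, at 0.47 and WDR4, of tRNA methylation, at -0.43. None of 21 RNA polymerase III genes did (median -0.15), from POLR3K (-0.42) to POLR3C (0.15).

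Listed enzymes that make the amino acids and listed transporters that import them differed more. Of 19 synthesis enzymes 8 were at least 1.5-fold higher and none lower (median 0.32), against 2.20% of all tested genes higher. They were led by ASNS (2.69), CTH (2.04), PSAT1 (1.92) and PSPH (1.48). Of 9 listed transporters 8 were at least 1.5-fold higher (median 1.16), led by SLC7A11 (3.05), SLC6A9 (2.45), SLC1A4 (2.17) and SLC3A2 (1.40). Both lists were chosen with earlier results of these data known, so these shares do not describe all such genes.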

How the data were processed

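Directional mRNA libraries (KAPA stranded kit, TRIzol RNA, per the labels' protocols) gave 1 FPKM value per gene symbol and library. The FPKM were computed and deposited by the authors, and the unit is given per the file headers. Tools named in the submitters' processing notes are bcl2fastq, TopHat, Cufflinks, StringTie and Cuffnorm, with GRCh37 and hg19 as builds. Versions, roles, annotation and counting strand: not given in the sources used here. Here, genes averaging 1 FPKM or more were kept after 2064 symbols of short RNA genes were removed, which left 11962. FPKM are not counts and each group had 1 library, so no test was run, and shares past a fold describe these libraries.

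Members, gene lists and motifs were chosen with earlier results of these data known. All 39 members are named. From the other lists, genes past 1.5-fold (up to 4), or otherwise the highest and lowest, are named. Grouping by essential amino acids was added after values were seen. Promoter windows are RefSeq's on GRCh38.p14, and no coordinate was moved between builds. Alternatives covered the pseudocount (0.1 or 5 FPKM in place of 1), the filter (none, or 5 FPKM), centring, 2 scalings and a 2-fold threshold. The calculation was tested on simulated data with little noise and large planted differences, which checks the arithmetic and not the spread of real libraries. Python 3.11.15, numpy 2.4.6, pandas 2.3.3 and matplotlib 3.10.9 were used.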

Additional observations from a re-analysis of the deposited data

How the results depend on the processing

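The cytosolic median ran from 0.49 to 0.59 and the difference of medians outside and inside the complex from 0.52 to 0.53 over the settings tried. Centring could not change that difference, nor could the filters, which kept all 20 cytosolic genes, and scaling nearly cancels in it. The mitochondrial median, -0.08 as deposited, was 0.00 after scaling to equal sums. Of 272 member values under 7 settings, 271 moved by less than 0.1 and 1 by more (CARS, 1.26 with a pseudocount of 5 FPKM). This count says little on robustness. The filters cannot change the value of a member that is kept, and centring and scaling shift all members nearly alike. At a 2-fold threshold 3 cytosolic genes in place of 8 were higher, and 91 of all tested genes were higher and 5 lower. Over all tested genes at 1.5-fold, a pseudocount of 0.1 FPKM gave 421 higher and 189 lower, a pseudocount of 5 FPKM 127 and 36, and a mean of at least 5 FPKM 168 higher. Scaling to equal upper quartiles gave 58 lower and to equal sums 52. RARS2, with a mean under 5 FPKM, had no value under the stricter filter. Leaving out a replicate was not possible with 1 library per group. No paired analysis was possible because each group had 1 library. Read depth is unknown, so counting error could not be given.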
